A study of Mus musculus with 4 samples.

Results

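Immediate early genes are transcribed within minutes of neuronal firing or growth factor signalling, before any new protein is made. The transcription factors CREB, SRF and MEF2 already sit near these genes and respond to calcium and kinase signals. Most of the products, among them the Fos, Jun and Egr proteins, are transcription factors that act on later genes, while others, such as Arc and Bdnf, act at synapses. In the hypothalamus, Fos is widely used as a marker of recently active cells.

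Open chromatin at 10 such genes was described in the PVH, the paraventricular nucleus of the mouse hypothalamus, which controls feeding and the stress axis. The genes were Fos, Fosb, Jun, Junb, Egr1, Egr3, Npas4, Arc, Nr4a1 and Bdnf, taken as a named list from 21883 protein-coding genes of the RefSeq table. ATAC-seq, which marks open chromatin by transposase insertion, had been run on 4 libraries of PVH tissue from mice 12 weeks old. All mice were Otp fl/fl; Ai14, that is, homozygous for a loxP-flanked Otp allele and carrying the Ai14 reporter. The 2 AAV-GFP libraries are the controls, and in the 2 AAV-Cre libraries Cre had been delivered by adeno-associated virus to delete Otp, a homeobox gene needed for several types of hypothalamic neuron, with dissection 4 weeks after injection in the adult. The labels name neither the promoter that drives Cre nor a sort of infected cells, and they do not say how many animals gave a library, so p-values and spreads here measure only these libraries and may reflect technical variation.

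The lists of AAV-GFP 1 and 2 held 57682 and 34100 peaks and those of AAV-Cre 1 and 2 held 23384 and 26612. The read depth behind them is unknown, since they hold no counts. Of 8 PVH marker genes, Pou3f2 and Mc4r had a peak at the gene start in all 4 libraries, while Trh, Avp and Oxt had none in any. Sim1 had a start peak in AAV-GFP 1 alone, and Crh in AAV-GFP 1 and AAV-Cre 2. Otp itself had a start peak in both controls and in AAV-Cre 2, which a list of open regions cannot relate to the deletion. Of 3 general neuron markers, Snap25 and Syt1 had a start peak in all 4 libraries and Rbfox3 in none. Of 8 astrocyte and oligodendrocyte markers, 0 had a start peak in all 4 libraries, and AAV-GFP 1 had a start peak at 5 of them. Of 7 microglial and endothelial markers, 0 had such a peak in any library. In bulk tissue, fewer cells with an open region and a less open region per cell cannot be told apart. With 2 libraries against 2, the exact permutation test of a single value has 3 splits and cannot give a 2-sided p below 0.33, so no difference between the groups below could reach significance.

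The promoter sequences of 4 members are shown first because the start regions described below lie on them and because they carry the element that CREB binds. Each run is the 250 bases before the RefSeq start site (GRCm38.p6, the mm10 assembly), written 5′ to 3′ on the strand of the gene. Capitals mark the CRE core TGACG or its reverse complement CGTCA and, in Fos, the TATA box TATAAA.

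Fos, chr12:85473640-85473889, plus strand: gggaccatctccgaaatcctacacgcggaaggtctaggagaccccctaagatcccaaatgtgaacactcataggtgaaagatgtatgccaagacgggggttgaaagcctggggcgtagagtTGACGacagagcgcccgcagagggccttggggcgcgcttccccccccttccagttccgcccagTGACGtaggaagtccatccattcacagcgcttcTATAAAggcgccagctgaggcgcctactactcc
Junb, chr8:84978749-84978998, minus strand: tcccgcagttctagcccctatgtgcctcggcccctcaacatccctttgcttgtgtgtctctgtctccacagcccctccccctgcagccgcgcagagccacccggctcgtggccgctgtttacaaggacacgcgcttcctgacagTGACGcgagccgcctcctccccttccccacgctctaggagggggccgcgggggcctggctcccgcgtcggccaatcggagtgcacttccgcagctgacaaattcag
Nr4a1, chr15:101266596-101266845, plus strand: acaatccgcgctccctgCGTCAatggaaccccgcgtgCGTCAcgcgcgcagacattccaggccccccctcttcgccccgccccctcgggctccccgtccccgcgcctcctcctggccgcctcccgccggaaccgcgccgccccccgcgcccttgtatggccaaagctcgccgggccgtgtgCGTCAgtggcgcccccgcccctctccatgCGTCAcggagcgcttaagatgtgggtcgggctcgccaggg
Npas4, chr19:4989972-4990221, minus strand: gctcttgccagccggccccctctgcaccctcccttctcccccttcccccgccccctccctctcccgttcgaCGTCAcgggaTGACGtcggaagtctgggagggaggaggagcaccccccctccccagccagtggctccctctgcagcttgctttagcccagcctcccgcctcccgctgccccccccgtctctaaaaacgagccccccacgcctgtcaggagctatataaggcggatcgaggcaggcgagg

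Nr4a1 carried 4 CRE cores in this stretch, at 233, 213, 69 and 40 bases before the start, and Npas4 carried 2 that lie 10 bases apart, at 179 and 169. Fos carried 2, at 129 and 66 bases before the start, and Junb 1, at 106. Fosb also held 1 core, at 60 bases, and 1 of the 7 Bdnf start sites held 1, at 35 bases. Of the 7 members with an entry in the promoter table, 6 therefore held the core at some start, and Jun held none. Counted by start site this was 6 of 13, against 17.8% of all 32851 promoters searched in the same way on both strands. The G and C content of the 6 members with 1 start ran from 58.4% to 74.4%, and that of the 7 Bdnf starts from 39.2% to 59.6%, against a median of 52.4% over all promoters, and the part of base composition in the core count was not tested. The full CRE palindrome TGACGTCA, the EGR site GCGTGGGCG and the CArG box of SRF were found in 0 of the 13 stretches. The AP-1 site TGANTCA was in 1 Bdnf start and TATAAA in Fos alone. Over all promoters these motifs were in 1.55%, 0.536%, 1.47%, 6.75% and 12.4%. The SP site GGGCGG was in 7 of the 13, against 32.7%. No promoter entry was used for Egr1, Egr3 and Arc.

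Overlapping peaks (1 bp or more) from the 4 libraries were joined into regions, and those touching a member gene or 50 kb to either side of it were taken. The member windows held 118 regions, of which 42 (35.6%) had a peak in all 4 libraries, against 21.7% of all 67299 regions. The set of all regions was not limited to windows around genes. A window held a median of 11.5 regions and 4.5 such shared regions, against 5 and 2 for the same window around all protein-coding genes. The range among members was wide. Junb, in a gene-rich stretch with Prdx2, Hook2 and Rnaseh2a, had 22 regions and Fosb had 20, while Jun and Egr3 had 6 each and Bdnf had 5. Fosb and Npas4 had the most shared regions, at 7 each, and Bdnf had 0. Many regions belong to neighbours, since 39 of the 118, and 14 of the 42 shared, lay within 1 kb of the start of another gene.

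**Figure D1:**
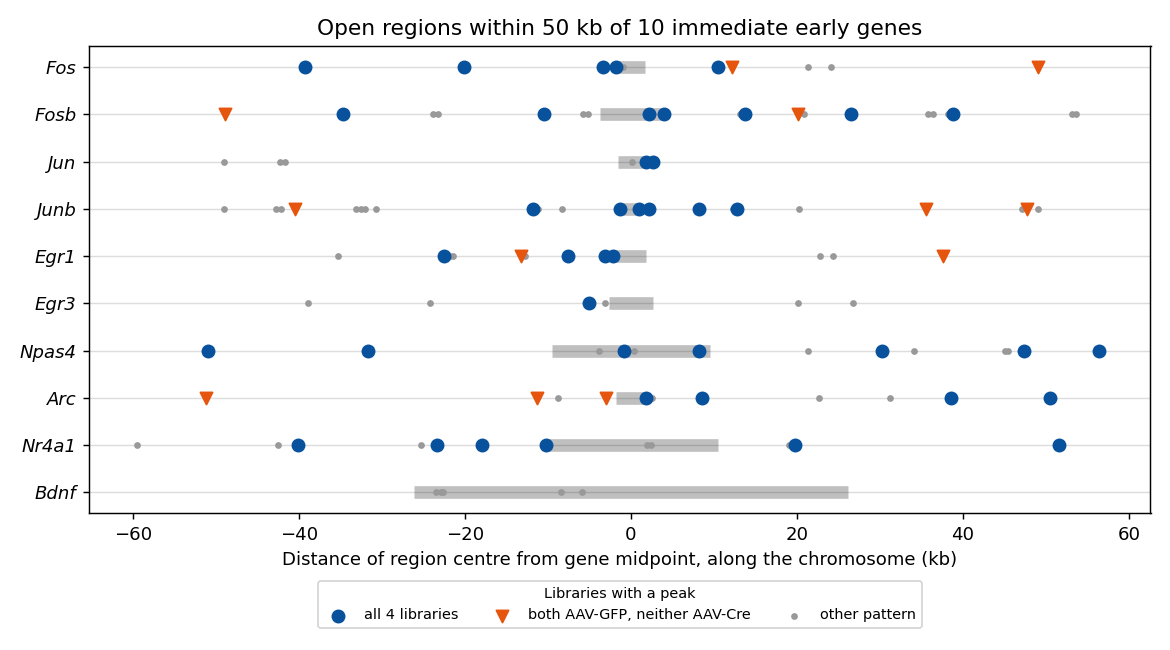
Map of the 118 open regions around 10 immediate early genes, with the distance of each region's centre from the gene midpoint in kb along the chromosome, the gene body as a grey bar, and the symbol giving which libraries had a peak. Shared regions stand near the gene in 9 of the 10 rows, while Bdnf has 5 regions, none of them shared.

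A start region was one within 1 kb of a RefSeq start site, or of either gene end for Egr1, Egr3 and Arc. Of the 10 members 6 had a start peak in all 4 libraries (Fos, Fosb, Jun, Junb, Egr1 and Arc), against 42.9% of protein-coding genes. None of the 10 had a start peak in both controls and in neither AAV-Cre library, against 3.05% of protein-coding genes. This count was 2 (Npas4 and Bdnf) without AAV-GFP replicate 2 and 1 (Nr4a1) without AAV-Cre replicate 1. Among peaks with a −log10 q from 5 up, 3 members had a start peak in every library and 3 in the controls alone. The shares of all protein-coding genes were not computed for these changed settings, so these counts have no such share beside them. The fold enrichment given for each peak is the authors' own ratio of signal to background within its list, and the list percentile is the place of the peak in its own list by −log10 p, counted from the strongest. Since the lists differ in length, list percentiles are given as a place in each list and are not compared between the groups.

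Of the 7 shared start regions of members, 4 (Fos, Jun, Junb and Egr1) had a lower fold in both AAV-Cre libraries than in both controls and 0 had a higher one. The same was true of 58.9% and 2.53% of all 9021 shared regions at gene starts, so the lower folds given next were near the usual share.

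Jun, which encodes the main dimer partner of the Fos proteins, had the strongest start region of the list. It lay on chromosome 4 from 95051921 to 95052951, over the start, and overlapped the long noncoding gene Junos. Its fold enrichment was 11.03 and 10.8 in AAV-GFP 1 and 2 and 8.54 and 7.94 in AAV-Cre 1 and 2. In all 4 lists it stood within the strongest 6.34%, at percentiles 3.11, 3.95, 5.55 and 6.34. A weaker shared region 864 bp before the Jun start had folds of 4.42, 5.05, 4.64 and 4.09 in the same order.

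Fos encodes the AP-1 subunit that gives the activity marker its name, and its start region was far weaker than that of Jun. It lay on chromosome 12 from 85473516 to 85474038, over the printed promoter, and had folds of 5.65 and 6.19 in the controls, against 4.47 and 4.10 with AAV-Cre. Its list percentiles were 29.4, 28.9, 59.4 and 78.9 in AAV-GFP 1 and 2 and AAV-Cre 1 and 2. The peaks covered all 250 printed bases in both controls and in AAV-Cre 2, and 108 of them in AAV-Cre 1. The authors' pooled group lists gave 5.67 for AAV-GFP and 4.33 for AAV-Cre.

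Junb encodes a further AP-1 subunit, and its start region had the lowest fold of the 7 shared start regions in both AAV-Cre libraries. On chromosome 8 from 84978545 to 84978964, the folds were 4.77 and 4.31 in the controls, against 3.24 and 3.54 with AAV-Cre. The list percentiles were 23.3, 37.3, 83.3 and 74.5. The start region of Fosb, whose product belongs to the same family, lay on chromosome 7 from 19310049 to 19310650. Its folds of 5.29, 3.83, 4.60 and 3.83 overlapped between the groups.

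Egr1 encodes a zinc finger transcription factor induced through SRF. The region over its lower end, on chromosome 18 from 34860325 to 34861578, was 1254 bp wide, the widest start region of the list. The folds were 6.03 and 6.18 in the controls, against 4.59 and 4.51 with AAV-Cre. The peak itself spanned 759 and 1131 bp in the controls, against 242 and 487 bp with AAV-Cre, narrower in both of the latter, as was seen at 34.5% of all shared regions at gene starts. Egr3, of the same family, had a peak 341 bp outside its lower end in AAV-GFP 1 (6.07) and AAV-Cre 1 (4.15), and none there in the other libraries.

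Arc, whose product regulates AMPA receptors at synapses, kept its region in every library. The region over the upper end of Arc, on chromosome 15 from 74672485 to 74672943, had folds of 5.81, 7.002, 5.64 and 6.03 and list percentiles of 20.5, 14.3, 28.1 and 20.8. The groups overlapped in fold. A second region 540 bp outside the same end was called in AAV-GFP 1 and 2 (4.93 and 5.33) and in AAV-Cre 1 (4.46), and not in AAV-Cre 2.

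Nr4a1 encodes an orphan nuclear receptor. Its start region, on chromosome 15 from 101266535 to 101266988, had folds of 8.20 and 6.78 in the controls and 3.78 in AAV-Cre 1, with no peak in AAV-Cre 2. A separate weak region 327 bp before the start was called in AAV-GFP 2 (3.05) and AAV-Cre 1 (4.11). The start peaks covered 250 and 141 of the printed bases in the controls, 120 in AAV-Cre 1 and 0 in AAV-Cre 2. The pooled list for AAV-GFP had a peak there with a fold of 8.24 and the pooled list for AAV-Cre had none. In the member windows the pooled lists held a peak only where both libraries of the group did. The missing pooled peak therefore adds nothing to its absence from AAV-Cre 2.

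Npas4, a transcription factor largely restricted to neurons and induced by calcium entry, had a peak over its start, on chromosome 19 from 4989944 to 4990297, in AAV-GFP 1 alone (4.76). All 250 printed bases, both CRE cores included, lay under that peak, and 0 lay under a peak in the other 3 libraries. Bdnf, which encodes a neurotrophin transcribed from many alternative starts, had 5 peaks in its window, all of them in AAV-GFP 1 and inside the gene. Of these 4 lay within 1 kb of a start, with folds of 4.31, 5.58, 6.04 and 7.46. AAV-GFP 1 was also the longest list, and it alone held 28 of the 41 regions of the member windows seen in 1 library. Over all regions it alone held 23481 of the 32875 seen in 1 library, so the member count was near the usual share.

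**Figure D2:**
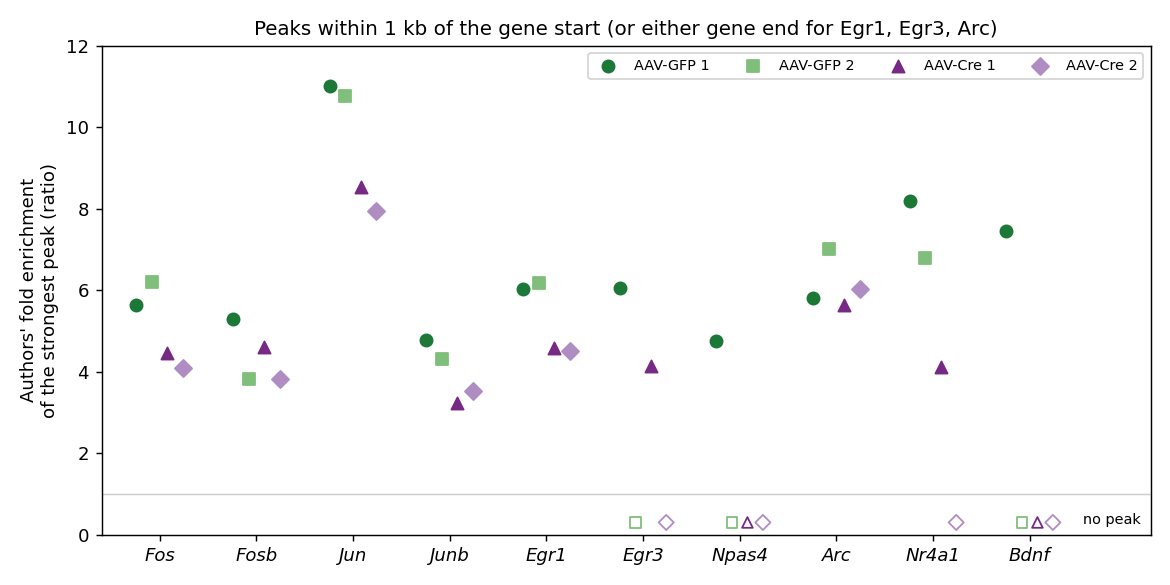
Authors' fold enrichment (ratio, linear axis) of the strongest peak within 1 kb of each gene's start in each of the 4 libraries, with an open symbol where a library had no peak. Jun stands at 7.94 to 11.03 in all 4 libraries, while Npas4 and Bdnf have a start peak in AAV-GFP 1 alone.

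Start regions of the list were mostly weaker than is usual for open gene starts. Over all 9021 shared regions at a gene start, the median fold was 9.73 and 8.73 in the controls, against 7.003 and 7.20 with AAV-Cre. Of the 7 shared start regions of members, the 1 over the Jun start lay above these medians in all 4 libraries and the other 6 lay below them in all 4. The median list percentile of shared start regions was 10.8, 17.7, 27.4 and 24.6.

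Away from the starts, several members had far stronger regions. Around Fos, whose flanks are known to hold several activity-dependent enhancers, 4 shared regions lay outside the start. The region 18.0 kb before the start, on chromosome 12 from 85454962 to 85455919 inside the long noncoding gene Gm38543, had folds of 14.4, 12.9, 12.2 and 8.27. A region 11.9 kb after the start, beyond the gene, had 10.1, 11.8, 10.1 and 9.19, and was within the strongest 8.74% of all 4 lists. A region 37.2 kb before the start, inside Gm40477, ranged more widely, at 11.1 and 10.8 in the controls, against 14.2 and 7.24 with AAV-Cre. All 3 were stronger than the Fos start region in every library. The nearest upstream region, 1447 bp before the start, was weak, at 4.48, 4.38, 4.67 and 4.93.

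Nr4a1 and Npas4 each had a strong region away from the listed start in all 4 libraries, although their regions at the listed starts were not shared. At Nr4a1 the region lay 20.0 kb before the start, on chromosome 15 from 101246084 to 101246798, between genes. Its folds were 13.95, 15.4, 10.996 and 13.2, and its list percentiles of 1.82, 1.32, 3.83 and 1.57 were the strongest of the 42 shared regions in AAV-GFP 2 and AAV-Cre 2. The Nr4a1 gene span of the RefSeq table begins at 101253902, before the listed start. A shared region over that end, from 101253886 to 101254486, had folds of 5.25, 6.11, 5.38 and 5.02. It was not counted as a start region, since gene ends were used only for members without a listed start. At Npas4 a region 11.8 kb before the start, on chromosome 19 from 5001731 to 5002401, had folds of 11.6, 13.0, 9.22 and 13.5. It lay inside the gene span of the RefSeq table, which runs from 4984353 to 5003439 and past the listed start. The region is thus close to the upper end of that span, although far from the listed start. A second Npas4 region 2884 bp before the start had folds of 6.94, 6.13, 5.83 and 7.90, in all 4 libraries.

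Fosb and Arc had intermediate regions. A region 9827 bp before the Fosb start had folds of 11.4, 9.96, 8.29 and 12.4, and a region inside Fosb, 1185 bp past the start, had 7.79 and 9.22 in the controls, against 6.02 and 5.81 with AAV-Cre. Outside the upper end of Arc, a region at 6599 bp inside the noncoding gene Gm32994 had 6.63, 7.58, 7.10 and 4.76. Arc is known to be driven by a synaptic activity-responsive element several kb upstream, and whether this region is that element was not tested. Egr1 had a region 22.2 kb outside its upper end with folds of 8.11 and 8.52 in the controls, 6.34 in AAV-Cre 1 and no peak in AAV-Cre 2. Outside the lower end of Egr3, a shared region at 2035 bp had 6.05, 7.98, 4.68 and 5.88.

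To set starts against distal regions, shared regions within 1 kb of any gene start were left out of the distal set. Of the 5 members with both kinds of shared region, 3 (Fos, Fosb and Junb) had a distal region stronger by −log10 p than the start region in all 4 libraries, against 21.3% of 3456 protein-coding genes. Arc had the stronger distal region in AAV-Cre 1 alone and Egr1 in AAV-Cre 2 alone. The count fell to 1 with a start window of 2500 bp and to 0 under a stricter threshold (−log10 q from 5 up).

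**Figure D3:**
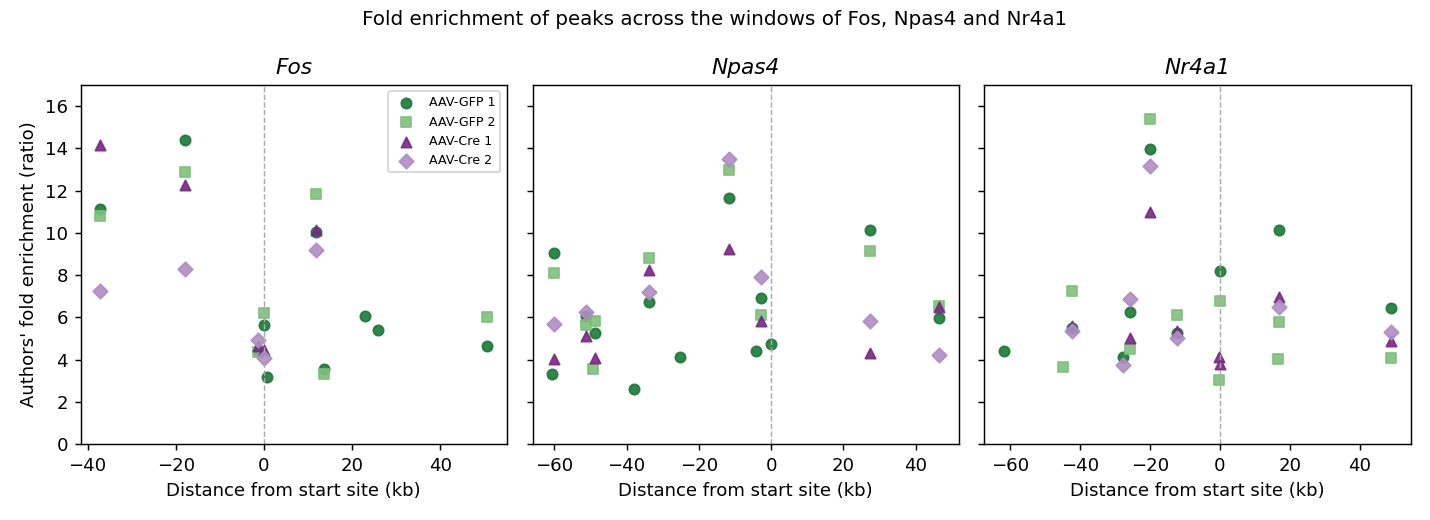
Authors' fold enrichment (ratio) of each peak against the distance of its region from the RefSeq start site in kb, negative before the start, for Fos, Npas4 and Nr4a1 in the 4 libraries. The tallest points lie away from the dashed start line, among them the Nr4a1 region 20.0 kb before the start at 10.996 to 15.4.

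Regions present in both controls and absent from both AAV-Cre libraries were about as common near these genes as elsewhere. They numbered 12 of 118 (10.2%), against 11.5% of all regions, and 0 of the 118 were present in both AAV-Cre libraries alone, against 1.18%. The latter count was 2 without AAV-Cre replicate 1 and 3 without AAV-Cre replicate 2. The 12 were spread over Fos (2), Fosb (2), Junb (3), Egr1 (2) and Arc (3). None lay at a member start, 3 lay at the start of a neighbour of Junb, and 9 lay between genes or inside another gene. The count was 20 without AAV-GFP replicate 1, 40 without AAV-GFP replicate 2 and 19 without AAV-Cre replicate 1. In lists cut to the length of the shortest it was 3, and for 9 of the 12 the cut itself had removed a control peak. The shares of all regions were not computed for these changed settings, so these counts have no such share beside them.

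In the lists of equal length, 3 of the 12 still had both control peaks, namely those at Get3 and Best2 near Junb and 1 inside Vasp near Fosb. The region beside Get3, a factor of membrane protein targeting, lay on chromosome 8 from 85025366 to 85025719 and had folds of 5.99 and 8.83. That at Best2, a chloride channel gene, had 6.56 and 7.41, and that in Vasp, which encodes an actin regulator, had 8.36 and 5.28. Nearer to the members themselves, Arc had regions 1105 and 9349 bp outside its lower end with folds of 3.93 and 3.19, and of 4.24 and 4.46. Fos had 1 at 13.6 kb past the start, with 3.58 and 3.33. These Arc and Fos peaks were weak in their own lists, at percentiles from 59.4 to 92.9.

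Lists of different length cannot be compared by percentile, so shared regions were also ranked by −log10 p within the set of 14634 regions that all 4 libraries share, with 0 as the strongest. Of the 42 shared member regions, 8 (19.0%) ranked weaker in both AAV-Cre libraries than in both controls, against 19.7% of all shared regions, and 5 (11.9%) ranked stronger, against 19.8%. The counts of weaker and stronger regions were 13 and 10 without AAV-GFP replicate 1, 11 and 17 without AAV-GFP replicate 2, 19 and 15 without AAV-Cre replicate 1, and 15 and 19 without AAV-Cre replicate 2. With a library left out, the shares of all shared regions were not computed. The replicate block, in which each AAV-Cre library is compared with the control of the same number, gave 12 (28.6%) and 9 (21.4%), against 27.1% and 27.4% of all shared regions. Of the 8 weaker regions, 3 lay at member starts, 3 at the starts of the neighbours Rnaseh2a, Mrpl11 and Rin1, 1 inside Fosb at 1185 bp past the start and 1 at 6954 bp before the Junb start. The 5 stronger regions lay 1447 bp before the Fos start, 1011 bp before Junb, 2884 bp before Npas4, inside Rtn2 near Fosb and inside Gm52200 near Nr4a1.

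At the starts themselves, 3 of 7 shared member regions ranked weaker in both AAV-Cre libraries (Fos, Junb and Egr1) and 0 ranked stronger, against 22.5% weaker and 16.1% stronger among all shared regions at gene starts. The 0 depends on the 1 kb limit. Just outside it, the shared region 1011 bp before the Junb start ranked stronger in both AAV-Cre libraries. Its ranks were 81.1 ± 1.13 in the controls and 57.0 ± 18.6 with AAV-Cre (SD, n = 2 each). The Egr1 region ranked at 40.6 ± 9.34 in the controls and 63.6 ± 5.84 in the AAV-Cre libraries (SD, n = 2 each, 2-sided exact permutation p = 0.33). For the Junb start the ranks were 69.8 ± 1.55 and 92.5 ± 1.92, and for the Fos start 68.6 ± 12.7 and 85.2 ± 10.5, with the same exact permutation p (n = 2 each). The Fos groups nearly touched, at 77.6 in AAV-GFP 1 against 77.8 in AAV-Cre 1. Shifts as large toward weaker rank were seen in 7.82%, 8.10% and 14.4% of all shared regions for Egr1, Junb and Fos. These 3 genes were named because their groups did not overlap, so a positive shift with any 1 library left out follows nearly by construction. It ran from 16.7 to 29.4 for Egr1, 22.2 to 27.8 for Junb and 9.81 to 28.7 for Fos. The lowest Fos shift was without AAV-GFP replicate 2 and the highest without AAV-Cre replicate 1. Ranked by fold in place of −log10 p, the shift was 11.5 for Egr1, 4.37 for Junb and 12.8 for Fos, against 23.0, 22.7 and 16.6.

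Away from the starts, the region inside Fosb ranked at 30.8 ± 12.4 in the controls and 53.1 ± 8.21 in the AAV-Cre libraries, and the region 6954 bp before Junb at 60.8 ± 8.86 and 71.9 ± 3.64 (SD, n = 2 each). The groups did not overlap at either. The Jun start region ranked at 10.6 ± 1.99 and 10.1 ± 1.88, and the Arc end region at 48.5 ± 22.3 and 39.6 ± 4.40, with overlapping groups (SD, n = 2 each). At Fos, the region 1447 bp before the start went the other way from the start region, with ranks of 92.1 and 91.1 in the controls, against 74.8 and 75.3 with AAV-Cre. The Npas4 region 2884 bp before the start ranked at 58.1 and 61.8 in the controls, against 54.9 and 32.6 with AAV-Cre, stronger in both of the latter. The distal Nr4a1 region kept its place, at 7.02, 3.06, 6.08 and 2.82.

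**Figure D4:**
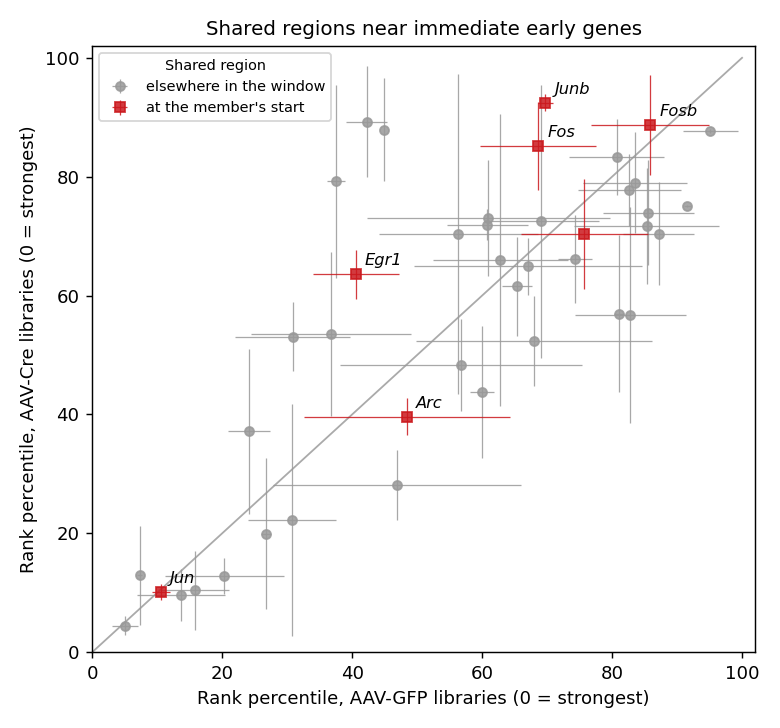
Mean rank percentile among the regions shared by all 4 libraries (0 is the strongest) in the AAV-GFP and AAV-Cre libraries for 42 regions near immediate early genes, with bars from the lower to the higher of the 2 libraries. Egr1, Junb and Fos start regions lie above the diagonal with bars that do not cross it, and Jun lies on it.

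Peak width at the starts gave no separate pattern over the list. Peaks at 3 of the 7 shared start regions (Fos, Jun and Egr1) were narrower in both AAV-Cre libraries than in both controls, against 34.5% of all shared regions at gene starts, and 0 were wider, against 6.09%. At Fos the widths were 484 and 513 bp in the controls, against 199 and 357 bp with AAV-Cre. At Jun they were 862 and 906 bp, and 844 and 714 bp. In the pooled lists the AAV-Cre peak was the wider at Fos (587 bp, against 545 bp for AAV-GFP) and at Jun (1501 against 1050 bp). The pooled AAV-Cre peak at Jun also overlapped the second shared start region of that gene. At Egr1 the pooled AAV-Cre peak was the narrower, at 746 against 1198 bp. The median width of shared start regions was 519 and 566 bp in the controls, against 437 and 466 bp with AAV-Cre.

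Other activity-regulated genes were often open at their starts. Of 30 further activity-regulated genes, 22 (73.3%) had a start peak in all 4 libraries, 0 had none in any library and 0 were open in the controls alone, against the 42.9% and 3.05% given above for all genes. Homer1, a postsynaptic scaffold gene, had folds of 10.6, 11.3, 13.1 and 8.58, and Dusp6, which encodes a MAP kinase phosphatase, had 12.99, 11.05, 11.9 and 10.6. Gadd45b, linked to DNA demethylation, had 9.46 and 9.33 in the controls, against 5.59 and 5.05 with AAV-Cre. A lower fold in both AAV-Cre libraries was found for 10 of the 22 (45.5%), against 60.7% of the 9381 protein-coding genes with a start peak in all 4 libraries. Nr4a2, Ier2, Sik1, Nrn1 and Ptgs2, like Npas4 and Bdnf, lacked a start peak in at least 2 libraries.

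Of 21 genes for regulators and upstream signals of these promoters, 17 (81.0%) had a start peak in all 4 libraries, among them Srf, Creb1, Crebbp, Ep300 and Mef2a, and so did Ntrk2, the receptor for Bdnf. Mef2c, an activity-dependent transcription factor of neurons, was the 1 gene of this list with a start peak in AAV-GFP 1 (6.34) and AAV-GFP 2 (4.60) and none after AAV-Cre, 1 of 21 (4.76%) against the 3.05% of all protein-coding genes. Camk4, which encodes a calcium-dependent kinase of CREB, had no start peak in any library.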

How the data were processed

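The tools named by the authors, per the submitters' processing notes, were MACS2, Bowtie2, Trim Galore and FastQC, with mm10 as the build, without versions or thresholds. The authors deposited 6 narrowPeak lists, 4 of single libraries and 2 of groups, whose peak names mark them as pools. The group lists held 28592 peaks for AAV-GFP and 16614 for AAV-Cre, fewer than either single list of the same group. In the 4 single-library lists, column 7 is a fold enrichment (ratio), columns 8 and 9 are −log10 p and −log10 q of the peak, and the deposited score is 10 times −log10 q cut to a whole number. For the group lists, columns 7 and 8 were read in the same way and column 9 was not used. Read depth is unknown.

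Regions were built with Python 3.11.15 and pandas 2.3.3, and the steps were tested on simulated data. Start sites came from a RefSeq promoter table (GRCm38.p6), which held 7 of the 10 members. Both gene ends stood in for the start elsewhere. The genes named are the members, their shared or group-specific regions, and list genes whose start pattern follows the groups. Other examples were chosen after their values were seen. The members and lists were chosen with earlier results of these data known. Alternatives were equal-length lists, a −log10 q of at least 5, other windows and overlaps, rank by fold, group lists, a replicate block and leaving out each library.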

Additional observations from a re-analysis of the deposited data

How the results depend on the processing

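Counts moved with list length and with how many libraries had to hold a peak, and the other causes were not tested. Shares over all regions or genes were computed for the lists as deposited and, for rank, in the replicate block. Counts under the other settings have no such share and are not read as particular to these genes. The 12 control-specific regions became 3 at equal length, 24 from the group lists, 2 in a window of 10 kb and 18 to 40 when a library was left out. In the member windows the group lists held a peak only where both libraries of the group did. Control-specific counts from these lists therefore include regions with a peak in 1 AAV-Cre library. Against 0 Cre-specific regions, equal length gave 1 and leaving out a library 0 to 3. Of 42 shared regions, 26 were left at the stricter q (−log10 q from 5 up), and windows of 10 and 100 kb held 24 and 66. A start peak in every library was found for 3 members, in place of 6, at the stricter q and for 6 to 7 without a library. Control-specific starts, 0 as deposited, were 3 at the stricter q, 1 from the group lists and 0 to 2 when a library was dropped. Regions ranking weaker, 8, became 3 at the stricter q, 5 at equal length, 20 by rank in the whole list, 5 within 10 kb and 11 to 19 without a library. Those ranking stronger, 5, became 2 at the stricter q, 8 by fold, 0 in the whole list, 8 within 100 kb, 9 with the replicate block and 10 to 19 without a library. Members with a stronger distal region, 3, became 0 at the stricter q, where the start regions of all 3 were no longer shared, 1 with a start window of 2500 bp, and 3 to 4 without a library.

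In the replicate block the control-specific count of 12 and the other counts of regions and starts were unchanged by construction. The numbers 1 and 2 were not read as pairs, since the deviations of same-numbered libraries correlated at -0.0165. The larger overlap was read as a peak covering 50% of its region, or lying by 50% under the strongest peak there.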

Other observations

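Among the 42 shared regions around the immediate early genes, those whose rank moved most toward weaker after AAV-Cre lay at starts of neighbouring genes and not at the members. At Rnaseh2a, which encodes a subunit of RNase H2 and lies beside Junb, the folds were 7.09 and 7.39 in AAV-GFP 1 and 2 and 4.64 and 3.52 in AAV-Cre 1 and 2. At Mrpl11, a mitochondrial ribosomal protein gene near Npas4, they were 10.1, 9.13, 4.31 and 5.82 in the same order. At Rin1, a Ras effector gene on the other side of Npas4, they were 9.06, 8.11, 4.05 and 5.70. At these 3 starts both controls were higher in fold than both AAV-Cre libraries, as at 58.9% of all shared regions at gene starts. Shifts as large toward weaker rank were seen in 0.335%, 0.642% and 0.875% of all shared regions for Rnaseh2a, Mrpl11 and Rin1. These regions were singled out after their values were seen, and no test could reach significance with 2 libraries a group.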
